A study of Homo sapiens with 3 samples.

Results

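The comparison described here is that of stretched with not stretched HCT116 tumour cells that had stayed in the upper channel of an organ-on-chip, read from 2 single-cell RNA libraries, 1 per condition. A barcode was taken as a cell if it had 500 or more detected genes and 1000 or more UMIs (unique molecular identifiers, each counting 1 captured RNA molecule), with no more than 20% of these from mitochondrial genes. Cells with at least 5 UMIs and at least 0.05% of their UMIs from the 5 genes APOA1, APOA2, FABP1, TTR and AGR2 were then left out, which keeps a small APOA1-high population of both top libraries apart. This left 19685 stretched and 16796 not stretched cells, 36481 of the 54788 barcodes of the series. The rule took out 436 of 20121 otherwise kept cells (2.17%, Clopper-Pearson 95% interval 1.97 to 2.38) with stretch and 410 of 17206 (2.38%, 2.16 to 2.62) without. At its threshold, 55 and 69 kept cells carried 3 or 4 UMIs of these genes, and 11 and 18 cells left out carried 5 to 7.

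HCT116 is an established human colorectal carcinoma line, and all groups carried the same histone H2B-GFP label, by which cells were sorted after trypsin (0.25%, 5 min, 37 °C) had lifted them from the channels. The stretched top group had 6 days of peristalsis-like cyclic stretch and had not invaded, the not stretched top group had no such stretch and had not invaded, and the stretched bottom group came from the same stretch condition but had invaded into the lower channel. The labels do not say how long the not stretched chips were kept, so equal culture time cannot be assumed. Droplet 3′ libraries were made with 12 PCR cycles and a target of 10000 droplets each. Each group had 1 library, and the labels do not say how many chips or cultures a library holds, so the sizes of differences are described without a test, no difference could be checked against replicates, and intervals cover counting error only.

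The kept cells held 204557219 UMIs with stretch, 205530788 without and 76641034 in the bottom library. Per cell the median was 9317, 10873.5 and 40387 UMIs in the same order, of which 10.4%, 9.63% and 4.09% came from mitochondrially encoded genes. The filters failed 20.1% of barcodes in the stretched and 34.1% in the not stretched top library, and 86 kept barcodes were shared between the top libraries. A gene with 0 UMIs could stand at up to 0.0147 CPM (UMIs of a gene summed over the kept cells, out of 1e+06 UMIs) with stretch and 0.0146 CPM without. Epithelial identity markers were present in both: EPCAM, the epithelial adhesion molecule, stood at 383 against 380.5 CPM and the keratin gene KRT8 at 954 against 938 CPM, the stretched library first here and below. The list of epithelial genes as a whole had a median log2 ratio of stretched to not stretched of −0.30, described with the other lists below. Markers of other cell types were near 0. Only 2 of 12 endothelial, 4 of 12 fibroblast and smooth muscle and 2 of 12 leukocyte markers averaged at least 1 CPM. PECAM1 stood at 0.508 against 0.506 CPM, PTPRC at 0.0342 against 0.0584 CPM and COL1A2 at 0.00489 against 0.00487 CPM. EGFL7, counted as an endothelial marker, was the exception at 102 against 126 CPM.

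Several pathways frame what follows. Interferons act through transcription factor complexes that contain IRF9 and bind interferon-stimulated response elements in the promoters of antiviral genes, and many epithelial cancer lines keep a low tonic output of this pathway without added interferon. Hypoxia-inducible factors (HIF) bind short hypoxia response elements and turn on glucose uptake, glycolysis and vasoactive peptides when oxygen is short. Cyclic stretch of an epithelium is sensed by stretch-gated channels, integrins and the actin cytoskeleton, with YAP and TAZ as the best known transcriptional output.

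The promoters of 5 of the genes with lower levels under stretch are printed first, since they carry the 2 short motifs against which the gene groups are described below. The sequences are RefSeq promoters (GRCh38.p14), taken upstream of the annotated start and ended before the first base that an exon of the same gene covers in GENCODE release 29. Each is written 5′ to 3′ on the strand of its gene, with motif matches on either strand in capitals. The motif is GAAANNGAAA, the core of the interferon-stimulated response element, in BST2 (chr19:17405649-17405880, minus strand), IFIT1 (chr10:89392373-89392545, plus strand) and IFI44 (chr1:78649539-78649788, plus strand). It is ACGTG or GCGTG, the forms of the hypoxia response element core, in ANGPTL4 (chr19:8363905-8364150, plus strand) and DDIT4 (chr10:72273674-72273919, plus strand).
BST2: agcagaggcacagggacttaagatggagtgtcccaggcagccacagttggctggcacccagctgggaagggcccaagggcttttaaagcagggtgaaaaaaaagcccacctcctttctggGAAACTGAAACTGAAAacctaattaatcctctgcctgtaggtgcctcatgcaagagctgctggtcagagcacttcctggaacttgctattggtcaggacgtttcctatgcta
IFIT1: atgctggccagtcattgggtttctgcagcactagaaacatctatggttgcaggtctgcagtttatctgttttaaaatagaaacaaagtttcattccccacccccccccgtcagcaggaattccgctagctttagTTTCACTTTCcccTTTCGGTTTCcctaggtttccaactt
IFI44: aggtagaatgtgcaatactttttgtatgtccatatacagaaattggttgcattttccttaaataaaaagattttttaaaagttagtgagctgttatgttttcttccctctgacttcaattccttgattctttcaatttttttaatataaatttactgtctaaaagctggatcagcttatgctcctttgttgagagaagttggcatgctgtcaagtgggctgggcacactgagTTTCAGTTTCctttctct
ANGPTL4: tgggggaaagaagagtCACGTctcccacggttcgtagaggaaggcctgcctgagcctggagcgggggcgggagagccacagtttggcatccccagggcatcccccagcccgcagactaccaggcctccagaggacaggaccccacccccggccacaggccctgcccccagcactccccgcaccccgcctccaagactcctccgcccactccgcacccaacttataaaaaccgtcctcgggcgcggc
DDIT4: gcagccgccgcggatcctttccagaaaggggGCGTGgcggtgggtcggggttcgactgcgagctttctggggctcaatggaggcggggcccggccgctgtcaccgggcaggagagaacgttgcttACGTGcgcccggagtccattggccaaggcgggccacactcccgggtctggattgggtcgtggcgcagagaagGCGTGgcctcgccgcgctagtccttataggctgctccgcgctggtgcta

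Both matches in BST2 overlap each other, and both in IFIT1 lie side by side on the opposite strand. Over the 250 bases upstream of the start, GAAANNGAAA was found in 839 of 27305 RefSeq promoters (3.07%), in 17 of 30 promoters of the interferon-stimulated gene list (56.7%), in 6 of 13 of the antigen presentation list and in 0 of 21 of the HIF target list. ACGTG was found in 18.7% of all promoters and in 12 of 21 HIF target promoters (57.1%), and GCGTG in 31.9% and in 10 of 21. Either form was present in 43.1% of all promoters and in 16 of 21 of the HIF list. A match says that these letters are in the window, not that a factor was bound in these cells.

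Most genes differed little between stretched and not stretched top cells. Over the 9069 genes that reached 10 CPM in 1 library or both, 5% of log2 ratios, taken after adding 1 CPM to each level, lay below −0.40 and 5% above 0.15. At a threshold of 1.5-fold, 14 genes (0.154%) were higher and 60 (0.662%) lower with stretch, and at 2-fold these were 0 and 7. The 7 were BST2, RBM3, DDIT4, SLC2A3, SAMD5, HTR7 and SSBP2. That split depends on the scaling, since under TMM scaling (below) BST2 (−1.07) and RBM3 (−1.04) alone of the 7 stayed past 2-fold and CYP24A1 (1.04) passed it on the higher side. The median gene stood at −0.16 on this log2 scale. Ribosomal protein genes took 23.6% of UMIs with stretch against 21.8% without and mitochondrially encoded genes 10.1% against 9.45%. TMM scaling, which centres the bulk of genes near 0 (median 0.02), gave 63 higher (0.703%) and 16 lower (0.178%) of 8964 genes. Under median of ratios scaling the median was 0.03, with 71 higher and 13 lower. Directions of single genes below are therefore given on the CPM scale with the TMM value where it changes a call, and directions of gene lists are given relative to the median of all 12509 genes that average at least 1 CPM (−0.17). A fold is the ratio of the CPM values, followed by its 95% interval in brackets. Every count past a threshold uses the log2 ratio with 1 CPM added, which understates the change of low genes, and gene positions are those of GENCODE release 29 on hg38.

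**Figure D1:**
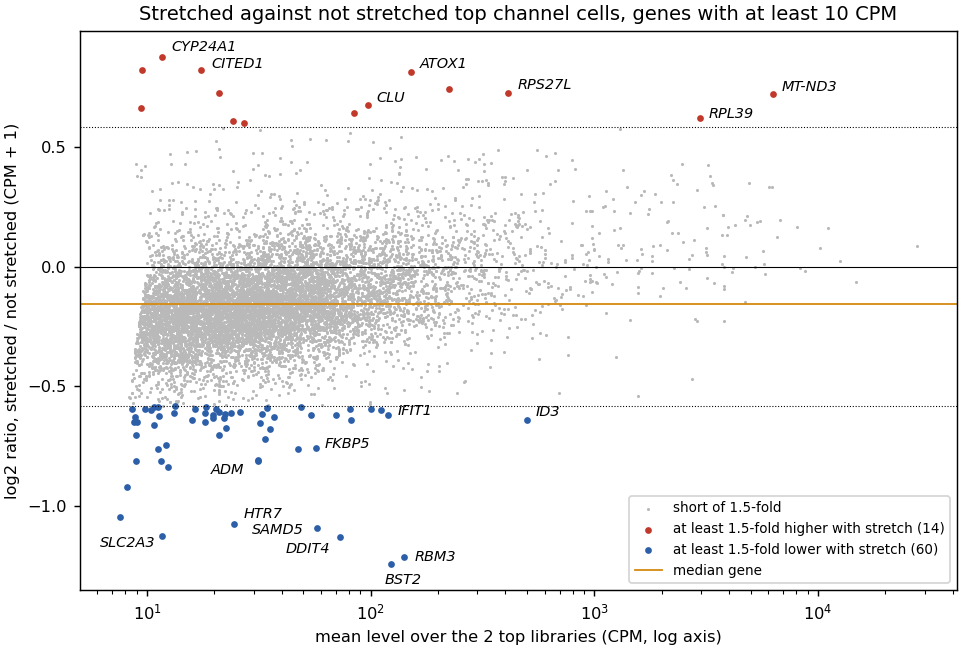
Log2 ratio of stretched to not stretched top cells (CPM with 1 CPM added) against the mean level of each of 9069 genes (log axis), 1 point per gene, with dotted lines at 1.5-fold and an orange line at the median gene. The cloud sits below 0 at low and middle levels and nears 0 at high levels, with BST2, RBM3, DDIT4 and SAMD5 lowest among genes of 30 CPM or more and ATOX1 and RPS27L among the highest of genes above 100 CPM.

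The lowest ratios belonged to genes of different kinds. BST2 encodes tetherin, an interferon-induced membrane protein that holds budding virus at the cell surface (ENSG00000130303, chr19:17402939-17405648). It stood at 73.0 CPM in the stretched top, 175 CPM in the not stretched top and 4.06 CPM in the bottom library, which made it 2.39-fold lower (2.35 to 2.44) with stretch than without. RBM3, a cold-inducible RNA-binding protein gene (ENSG00000102317, chrX:48574449-48579066), stood at 84.3 CPM in the stretched top, 197 CPM in the not stretched top and 105 CPM in the bottom library, 2.34-fold lower (2.30 to 2.38). With 1 CPM added these were the pair of genes with the largest absolute log2 ratios of all 9069.

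CIRBP, the other classic cold-inducible RNA-binding protein gene, went the same way with a smaller ratio. It stood at 189 CPM in the stretched top, 249 CPM in the not stretched top and 153 CPM in the bottom library, 1.32-fold lower (1.31 to 1.34), short of the 1.5-fold threshold. Under TMM scaling its log2 ratio was −0.23.

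DDIT4 (also called REDD1) is induced by hypoxia, energy stress and glucocorticoids and restrains the growth kinase complex mTORC1. It stood at 45.2 CPM in the stretched top, 100.3 CPM in the not stretched top and 46.7 CPM in the bottom library, 2.22-fold lower (2.16 to 2.27). SLC2A3, the high-affinity neuronal-type glucose transporter GLUT3, stood at 6.92 CPM in the stretched top, 16.3 CPM in the not stretched top and 3.39 CPM in the bottom library, 2.36-fold lower (2.21 to 2.51). SLC2A3 was much higher in the APOA1-high cells left out, at 269.6 against 324 CPM, and its log2 ratio was −0.80 with those cells kept in and −1.13 without them. A UMI of the 5 marker genes was still found in 9.89% of kept stretched and 13.1% of kept not stretched cells, and the part of such RNA in the SLC2A3 ratio was not tested.

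Among the remaining genes at the low end, HTR7, a serotonin receptor gene, stood at 15.4 against 33.7 CPM and SAMD5 at 36.4 against 79.0 CPM. SSBP2, a single-stranded DNA-binding protein gene, stood at 4.57 against 10.5 CPM, and RGS9, a regulator of G-protein signalling, at 6.18 against 11.60 CPM. ZFP36L2, which binds AU-rich elements and speeds mRNA decay, stood at 34.9 against 59.9 CPM, past 1.5-fold under TMM but not under median of ratios scaling (−0.58). In the bottom library SAMD5 (18.9 CPM), HTR7 (13.2 CPM) and SSBP2 (3.98 CPM) lay below both top libraries. LINC00854 stood at 5.29 against 10.9 CPM in the top libraries and at 44.9 CPM in the bottom library.

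On the CPM scale the highest ratios were smaller than the lowest, a gap that nearly closed under TMM scaling (CYP24A1 1.04, BST2 −1.07). CYP24A1, the vitamin D 24-hydroxylase that inactivates calcitriol and a direct target of the vitamin D receptor (ENSG00000019186, chr20:54153449-54173973), stood at 15.5 CPM in the stretched top, 7.95 CPM in the not stretched top and 4.16 CPM in the bottom library, 1.94-fold higher (1.83 to 2.07). ATOX1, the cytosolic copper chaperone that hands copper to the ATP7 pumps (ENSG00000177556, chr5:151742316-151772532), stood at 193 CPM in the stretched top, 109 CPM in the not stretched top and 170.2 CPM in the bottom library, 1.77-fold higher (1.74 to 1.796). For ATOX1 the bottom library lay near the stretched top library, while CYP24A1 was lowest in the bottom library.

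RPS27L, a ribosomal protein paralogue and p53 target, stood at 515 CPM in the stretched top, 311 CPM in the not stretched top and 369.9 CPM in the bottom library, 1.66-fold higher (1.64 to 1.67). MT-ND3, a mitochondrially encoded complex I subunit, stood at 7824 CPM in the stretched top, 4747 CPM in the not stretched top and 3621 CPM in the bottom library, 1.65-fold higher (1.64 to 1.65). CLU, the secreted chaperone clusterin, stood at 119.6 against 74.5 CPM and RAB27B, which docks secretory vesicles, at 12.4 against 6.59 CPM. CITED1, a transcriptional coactivator, stood at 22.5 against 12.3 CPM, but another gene covers 67.9% of the last 1000 exonic bases of CITED1 on the same strand, so its count is uncertain. KLRC2 (26.3 against 15.5 CPM) belongs to a family of near-identical receptor genes, so its count is uncertain too. The less abundant genes of this end were TMEM158 (26.5 against 17.4 CPM), WFDC3 (11.8 against 7.07 CPM), PRF1 (29.6 against 19.1 CPM) and MYH15 (32.8 against 21.3 CPM), with TMEM158 lowest in the bottom library (7.27 CPM). TMEM158 fell short of the 1.5-fold threshold once 1 CPM was added.

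Interferon-stimulated genes as a group were lower with stretch. Of 36 measured members of the list, 33 lay below the median of all genes, and the list median was −0.41, which is 0.24 below that of all genes. Of 32 members with at least 10 CPM, 4 were at least 1.5-fold lower (BST2, ISG20, IFI44 and IFIT1) and 0 higher, beside 0.662% of all genes lower. Under TMM scaling 1 of them, BST2, stayed past the threshold, beside 0.178% of all genes lower. The distance of the list median from that of all genes lay between −0.34 and −0.23 over all alternatives.

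The sensing and signalling arm and the effector arm had like medians. The 7 sensors and transcription factors had a median of −0.40, and each lay below the median gene. IRF9, the DNA-binding part of the interferon-activated transcription complex, stood at 9.51 against 12.8 CPM. IRF7, the amplifier of interferon production, stood at 50.03 against 66.8 CPM, and DDX58, which encodes the RNA sensor RIG-I, at 63.2 against 81.4 CPM. IFIH1, the sensor MDA5, and IRF1 had the smallest ratios of this arm, at 25.9 against 29.6 CPM and 19.99 against 22.6 CPM.

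The 29 effectors had a median of −0.45. IFIT1, which blocks translation of viral RNA without cap methylation, stood at 94.4 CPM in the stretched top, 146 CPM in the not stretched top and 4.59 CPM in the bottom library, and IFI44 at 13.98 CPM in the stretched top, 22.5 CPM in the not stretched top and 0.626 CPM in the bottom library. ISG20, an antiviral exonuclease, stood at 15.8 CPM in the stretched top, 26.3 CPM in the not stretched top and 6.76 CPM in the bottom library. The abundant members ISG15, a ubiquitin-like modifier, and IFI27, a mitochondrial protein, stood at 2299 against 3184 CPM and 569 against 822 CPM. OAS1 and OAS3, synthetases that activate RNase L, stood at 17.7 against 24.9 CPM and 54.1 against 75.4 CPM.

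The effectors of at least 10 CPM nearest to 0 were IFITM3, EIF2AK2 and IFIT5, which lay below 0 on the CPM scale and at 0.07, 0.03 and 0.01 under TMM scaling. IFITM3, which blocks virus entry, stood at 945 against 1018 CPM, EIF2AK2, the kinase PKR, at 164 against 181 CPM, and IFIT5 at 23.2 against 26.0 CPM. In the third library, the invaded bottom cells, each of the members just named was lower than in either top library. That library shares its stretch condition with the stretched top library, and its values are given side by side only.

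The difference in the summed interferon-stimulated transcripts was spread over the cells. This sum weighs abundant members most, and ISG15 alone made up a large part of the list total of 6205 CPM with stretch and 8207 CPM without. The per-cell values therefore do not show how the less abundant members were spread. With every cell thinned to 3000 UMIs, which left 18499 stretched and 15325 not stretched cells, the summed UMIs of the list had a median of 17 with stretch and 23 without. The lowest 10% of cells ended at 6 against 9 UMIs and the highest 10% began at 35 against 43. Cells with 0 UMIs of the list made up 0.211% and 0.0979%. The distributions overlapped over most of their width, and no separate group of cells without these transcripts stood out. How much of these sums is free RNA was not measured.

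**Figure D2:**
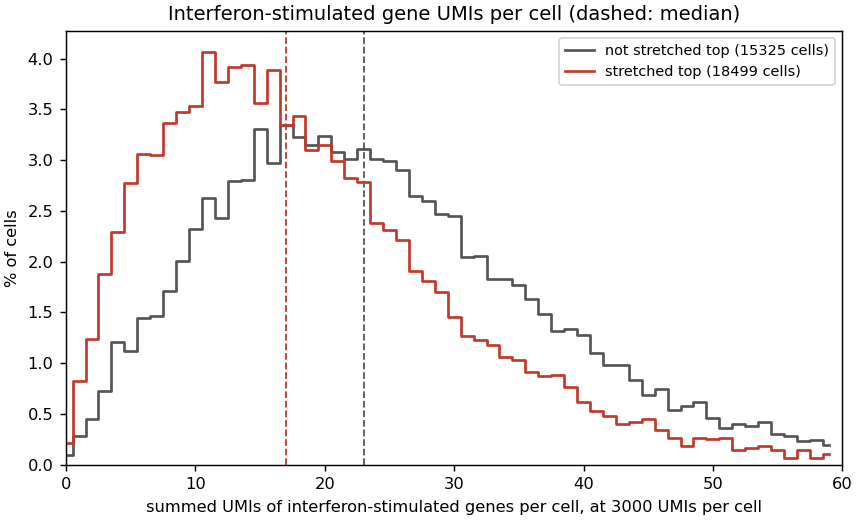
Share of cells (y axis, %) by the summed UMIs of the interferon-stimulated gene list per cell (x axis, each cell thinned to 3000 UMIs), for 18499 stretched and 15325 not stretched top cells. The stretched curve is shifted to lower sums, with dashed medians at 17 and 23 UMIs, and the curves overlap widely.

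Antigen presentation genes, many of them interferon-responsive, lay on the same side with smaller ratios. Of 14 measured members 13 lay below the median gene, and the list median was −0.29. HLA-F, a non-classical MHC class I gene, was the 1 of 12 members with at least 10 CPM past 1.5-fold, beside 0.662% of all genes lower, at 15.4 CPM in the stretched top, 24.2 CPM in the not stretched top and 6.24 CPM in the bottom library. Under TMM scaling 0 members were past it. PSMB9, an immunoproteasome subunit, stood at 48.0 against 68.8 CPM, with 17.6% of its last exonic bases shared with another gene, HLA-E at 95.4 against 136 CPM and TAP2, which pumps peptides into the endoplasmic reticulum, at 29.5 against 40.3 CPM. Per cell at 3000 UMIs the list had a median of 7 UMIs with stretch and 9 without.

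HIF target genes split. The list median of 25 members was −0.16, with 13 members above and 12 below the median of all genes, while 5 of 23 members with at least 10 CPM were at least 1.5-fold lower and 0 higher, beside 0.662% and 0.154% of all genes. The 5 were SLC2A3, ANKRD37, ADM, ANGPTL4 and PDK1. Under TMM scaling 3 were lower and 1, SLC2A1, was higher, beside 0.178% and 0.703% of all genes.

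ADM, the vasodilator peptide adrenomedullin, stood at 22.4 CPM in the stretched top, 40.1 CPM in the not stretched top and 31.9 CPM in the bottom library, 1.78-fold lower (1.72 to 1.85). ANKRD37 stood at 8.60 CPM in the stretched top, 16.2 CPM in the not stretched top and 7.78 CPM in the bottom library, and ANGPTL4, an inhibitor of lipoprotein lipase, at 17.0 CPM in the stretched top, 27.0 CPM in the not stretched top and 12.2 CPM in the bottom library. PDK1, which keeps pyruvate out of mitochondria, stood at 8.04 against 12.7 CPM. The bottom library lay between the top libraries for ADM and below both for ANKRD37 and ANGPTL4.

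On the other side of the list, SLC2A1, the glucose transporter GLUT1, stood at 127 CPM in the stretched top, 92.6 CPM in the not stretched top and 53.4 CPM in the bottom library, so the 2 HIF-regulated glucose transporters differed in direction. SLC2A1 was chosen for this description after its value was seen. P4HA2, a collagen prolyl hydroxylase, stood at 32.7 against 25.2 CPM, and NDRG1 at 152 against 122 CPM. VEGFA, the main angiogenic growth factor, stood at 19.7 against 24.2 CPM and BNIP3, a mitophagy receptor, at 117 against 111 CPM. Glycolysis enzymes had 0 of 18 members past 1.5-fold, with ENO1 at 1051 against 1201 CPM.

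Stress response genes gave a similar mix. Of 17 integrated stress response genes with at least 10 CPM, 1 was past 1.5-fold lower, beside 0.662% of all genes. It was DDIT3 (the pro-apoptotic factor CHOP), at 22.6 CPM in the stretched top, 40.4 CPM in the not stretched top and 31.4 CPM in the bottom library. ATF4, the central factor of this response, stood at 109 against 134 CPM and its amino acid targets ASNS and PSAT1 at 49.5 against 47.1 CPM and 57.5 against 54.0 CPM. The list median of 18 members was −0.16, near that of all genes. Of 6 mTORC1 inhibitor genes with at least 10 CPM, DDIT4 and SESN2 (10.2 against 16.2 CPM) were past the threshold, beside 0.662% of all genes lower, SESN2 not under TMM scaling, and SESN1 stood at 16.1 against 15.8 CPM.

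Of 6 glucocorticoid-responsive genes with at least 10 CPM, FKBP5 and PER1 were at least 1.5-fold lower, beside 0.662% of all genes. The list as a whole was not lower than other genes. The median of its 9 measured members was −0.16, near that of all genes, with 5 members above and 4 below the median gene. FKBP5, a co-chaperone of the glucocorticoid receptor, stood at 42.0 CPM in the stretched top, 71.6 CPM in the not stretched top and 41.8 CPM in the bottom library, 1.71-fold lower (1.66 to 1.75). PER1, a clock gene, stood at 12.9 against 19.98 CPM, and TSC22D3 (GILZ), an anti-inflammatory target, at 10.0 against 15.3 CPM, 1.53-fold lower and short of the threshold once 1 CPM was added. The receptor gene NR3C1 stood at 16.5 against 18.5 CPM. Under TMM scaling FKBP5 alone stayed past 1.5-fold, and under median of ratios scaling it fell short (−0.58).

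The ID genes encode dominant-negative helix-loop-helix factors downstream of BMP signalling. ID3 stood at 389.9 CPM in the stretched top, 609 CPM in the not stretched top and 509 CPM in the bottom library, 1.56-fold lower (1.55 to 1.57), ID2 at 63.9 against 100.2 CPM and ID1 at 683 against 838 CPM. BMP4, a ligand of this pathway, stood at 34.0 against 45.7 CPM. Of 7 members with at least 10 CPM, 2 (ID3 and ID2) were past the threshold, beside 0.662% of all genes lower, and 0 under TMM scaling, beside 0.178%.

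Immediate early genes had a median of −0.28 with 0 of 20 members past 1.5-fold once 1 CPM was added (DUSP2 was 1.51-fold lower without it). DUSP2 (27.6 against 41.7 CPM), JUNB (139 against 197 CPM) and ZFP36 (75.02 against 106 CPM) were the lowest of these, while KLF6 (107 against 101 CPM) and JUND (230.0 against 223 CPM) lay above 0.

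Genes that sense or transmit stretch differed little. Of 20 mechanosensor and mechanotransduction genes with at least 10 CPM, 0 were past 1.5-fold, and the median of 22 members was −0.22, 0.05 below that of all genes. PIEZO1, the stretch-gated cation channel, stood at 35.3 against 41.7 CPM, PTK2, the focal adhesion kinase, at 226 against 273 CPM, YAP1 at 121 against 113 CPM and its paralogue gene WWTR1 (TAZ) at 108 against 97.6 CPM. SUN2, which links the nuclear envelope to the cytoskeleton, was the lowest of these at 10.8 against 15.3 CPM.

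Of 12 YAP/TAZ target genes with at least 10 CPM, 1 was past 1.5-fold lower, beside 0.662% of all genes. It was CYR61 (CCN1), a matricellular protein, at 16.0 CPM in the stretched top, 24.7 CPM in the not stretched top and 25.1 CPM in the bottom library, and it fell short under TMM scaling (−0.43). LATS2 and AXL stood at 12.0 against 16.0 CPM and 19.9 against 25.7 CPM, and NT5E, at 69.6 against 55.6 CPM, was the highest of these. The list median was −0.26.

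Integrin and focal adhesion genes had 0 of 25 members past 1.5-fold. ITGB4, the laminin-binding hemidesmosome integrin, was highest at 143 against 101 CPM and passed 1.5-fold under TMM scaling, with FERMT1 (kindlin-1) at 34.1 against 25.4 CPM. The actin genes ACTB and ACTG1 stood at 1252 against 1272 CPM and 2642 against 3093 CPM, the myosin gene MYH9 at 94.8 against 105 CPM and TMSB10, an actin monomer binder, at 6923 against 5495 CPM. Of 27 actin and contractility genes, 19 tight and adherens junction genes and 11 epithelial genes with at least 10 CPM, 0 were past 1.5-fold under CPM or TMM scaling. The epithelial list had a median of −0.30, 0.14 below that of all genes, with 10 of 17 measured members below the median gene. E-cadherin (CDH1) stood at 33.7 against 41.7 CPM, and VIM, a mesenchymal intermediate filament gene, at 8.04 against 6.06 CPM. The mesenchymal list had a median of 0.01, with 8 of 12 measured members above the median gene. The list of partial epithelial-mesenchymal transition (EMT) genes had a median of 0.00, with 7 of 12 above it. Of 6 mesenchymal and 9 partial EMT genes with at least 10 CPM, 0 were past 1.5-fold on the CPM scale. Under TMM scaling 1 partial EMT gene was past it on the higher side, beside 0.703% of all genes, and 0 mesenchymal genes were.

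The lists with the highest medians were those of abundant housekeeping products. The 59 nuclear-encoded respiratory chain genes had a median of 0.14, 0.31 above that of all genes, with 51 above and 8 below the median gene. Of these genes 0 were past 1.5-fold, and 5 were higher under TMM scaling, beside 0.703% of all genes. Of their parts, all 10 complex IV genes lay above the median gene (median 0.22), complex I genes had a median of 0.18, ATP synthase genes 0.12 and complexes II and III 0.01. NDUFA3, a complex I subunit, stood at 121 CPM in the stretched top, 83.7 CPM in the not stretched top and 253 CPM in the bottom library and ATP5ME, an ATP synthase subunit, at 370.3 CPM in the stretched top, 267 CPM in the not stretched top and 673 CPM in the bottom library. Both were higher still in the bottom library.

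Cytosolic ribosomal protein genes had a median of 0.12 over 83 members, 81 of them above the median gene and 2 of 82 past 1.5-fold (RPS27L and RPL39), beside 0.154% of all genes higher. The 13 mitochondrially encoded genes had a median of 0.16, beside a mitochondrial share of 10.1% of UMIs against 9.45%. MT-ND3 was the 1 member past 1.5-fold, beside 0.154% of all genes higher (2 members under TMM scaling, beside 0.703%). MT-ND1 (2609 against 3038 CPM) was the lowest.

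Heat shock chaperone genes were 13 of 15 above the median gene, with a median of 0.12 and 0 past 1.5-fold (4 higher under TMM scaling, beside 0.703% of all genes). HSPE1, the mitochondrial co-chaperonin, stood at 1555 CPM in the stretched top, 1043 CPM in the not stretched top and 2506 CPM in the bottom library, HSPH1 at 97.0 against 65.5 CPM and CHORDC1 at 93.9 against 64.9 CPM. The 2 below it were HSPA1B (31.6 against 46.2 CPM), whose near-identical copy makes its count uncertain, and HSPA8 (490.0 against 579 CPM). Another gene covers 20.2% of the last exonic bases of HSPE1 on the same strand. Per cell at 3000 UMIs the chaperone list had a median of 30 UMIs with stretch and 24 without.

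Copper and metal handling genes included, beside ATOX1, the copper-zinc superoxide dismutase gene SOD1 (702 against 509.6 CPM), the cytochrome oxidase copper chaperone gene COX17 (148 against 109 CPM) and the metallothionein genes MT1X (369.9 against 274 CPM, with 59.7% of its last exonic bases shared with another gene) and MT2A (2636 against 2074 CPM). The copper importer gene SLC31A1 stood at 19.4 against 23.5 CPM. Of 11 members with at least 10 CPM 1 was past 1.5-fold, beside 0.154% of all genes higher, and 4 under TMM scaling, beside 0.703%. In the vitamin D and retinoid list, CYP24A1 was higher while the receptor genes RXRA (15.7 against 19.95 CPM) and RARG (10.2 against 14.2 CPM) and the retinoic acid carrier gene CRABP2 (154 against 205 CPM) lay below the median gene, which gave a list median of −0.29.

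All 15 measured NRF2 and oxidative stress genes lay above the median gene, with TXN at 1786 against 1450.1 CPM and FTH1 at 5198 against 4486 CPM, and 0 were past 1.5-fold. Cholesterol synthesis genes had a median of 0.06 and 0 of 22 past the threshold. In the fatty acid list the regulator gene SREBF1 was the 1 of 14 past 1.5-fold lower (55.0 against 85.2 CPM), beside 0.662% of all genes, and 0 were under TMM scaling. The p53 target list (0 of 18 past 1.5-fold) had a median of 0.00, with CDKN1A at 73.3 against 64.0 CPM, and the NF-kB list (0 of 6) one of 0.06, with NFKBIA at 40.1 against 34.4 CPM.

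**Figure D3:**
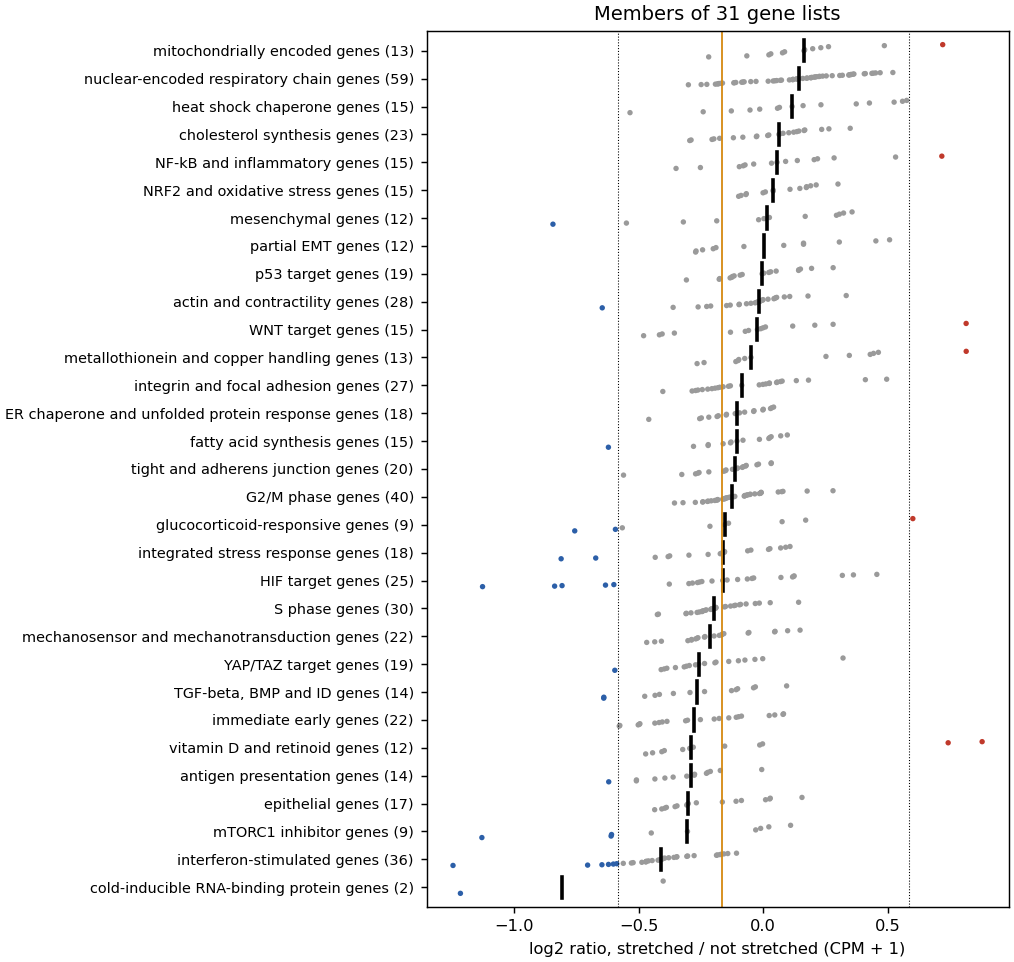
Log2 ratio of stretched to not stretched top cells (CPM with 1 CPM added) for every member averaging at least 1 CPM of 31 gene lists (number of members in brackets), 1 point per gene, with black bars at list medians, the orange line at the median of all genes and dotted lines at 1.5-fold. Points past 1.5-fold are blue (lower) or red (higher) at any level, so some stand below the 10 CPM needed for a count in the text, and the interferon-stimulated list lies almost wholly left of the orange line.

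Cell cycle phases were close in the top libraries. At 3000 UMIs per cell, G1 calls made up 51.5% (95% interval 50.8 to 52.2) of stretched and 50.6% (49.8 to 51.4) of not stretched cells, S calls 26.4% (25.7 to 27.0) and 28.4% (27.7 to 29.1), and G2/M calls 22.2% (21.6 to 22.8) and 20.9% (20.3 to 21.6). Scores within 0.05 of a boundary were held by 16.3% and 14.1% of cells. Of 29 S phase and 40 G2/M genes with at least 10 CPM, 0 were past 1.5-fold, with the replication helicase gene MCM2 at 29.2 against 39.6 CPM, MKI67 at 107 against 138 CPM and the mitotic ubiquitin enzyme gene UBE2C at 260.2 against 214 CPM.

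The top libraries differed in depth and mitochondrial share per cell, so ratios were also taken within groups of like cells: 5 ranges of UMIs per cell, 4 ranges of mitochondrial share and the 3 called phases, 12 groups in all. Of 41 named genes past 1.5-fold, 34 kept their direction in all 12 groups and 7 were past 1.5-fold in all 12. The 7 were BST2, RBM3, RGS9, TNNC1, RAB27B, FKBP5 and MT-ND3. The 41 genes were called from these same cells, so their shared direction is no separate support. Of the 41, 27 are lower genes, and the median gene itself lay below 0 in each group, between −0.22 and −0.07.

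BST2 lay between −1.50 and −0.78. Its level rose with mitochondrial share in both libraries, from 16.6 against 48.8 CPM in cells under 5% to 125 against 258 CPM in cells of 15 to 20%, and the log2 ratio narrowed over these steps from −1.50 to −1.04. RBM3 lay between −1.36 and −0.94, with 79.0 against 176 CPM in G1 cells, 87.6 against 210.4 CPM in S cells and 89.1 against 213 CPM in G2/M cells. DDIT4 had its smallest difference in the shallowest cells (1000 to 3000 UMIs), at 68.9 against 101 CPM, and its largest in S phase cells, at 35.8 against 96.0 CPM.

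SLC2A3 varied widely, from −1.70 in cells of 15 to 20% mitochondrial share to −0.13 in the shallowest cells, where it rested on 29 and 38 UMIs. Of the 3 phases its level was highest in G1 in both libraries, at 10.9 against 28.997 CPM in G1 and 3.55 against 6.55 CPM in S phase cells. ATOX1 lay between 0.24 and 0.90 and CYP24A1 between 0.57 and 1.33. SLC2A1 lay above 0 in all 12 groups (0.16 to 0.88).

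The shallowest group held 1186 stretched cells, and its mitochondrial share was 6.36% with stretch against 3.91% without. There ANKRD37 turned to 0.66, SESN2 to 0.50 and SYTL2 to 0.37. The interferon-stimulated list lay below the median of all genes in 12 of 12 groups, by 0.16 to 0.37. The respiratory chain, ribosomal protein, mitochondrially encoded, heat shock, cholesterol and p53 lists lay above it in 12 of 12. So did the mesenchymal, partial EMT, integrin, metallothionein, ER chaperone and fibroblast lists, the last with 4 measured members, 0 of them at 10 CPM. The TGF-beta, vitamin D, cold-inducible and endothelial lists lay below the median of all genes in 12 of 12. The cold-inducible list (RBM3 and CIRBP) and the endothelial list have only 2 measured members each. The HIF list lay above that median in 7 and the immediate early list in 1. The 12 groups are cuts of the same cells, so these counts are no separate support.

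**Figure D4:**
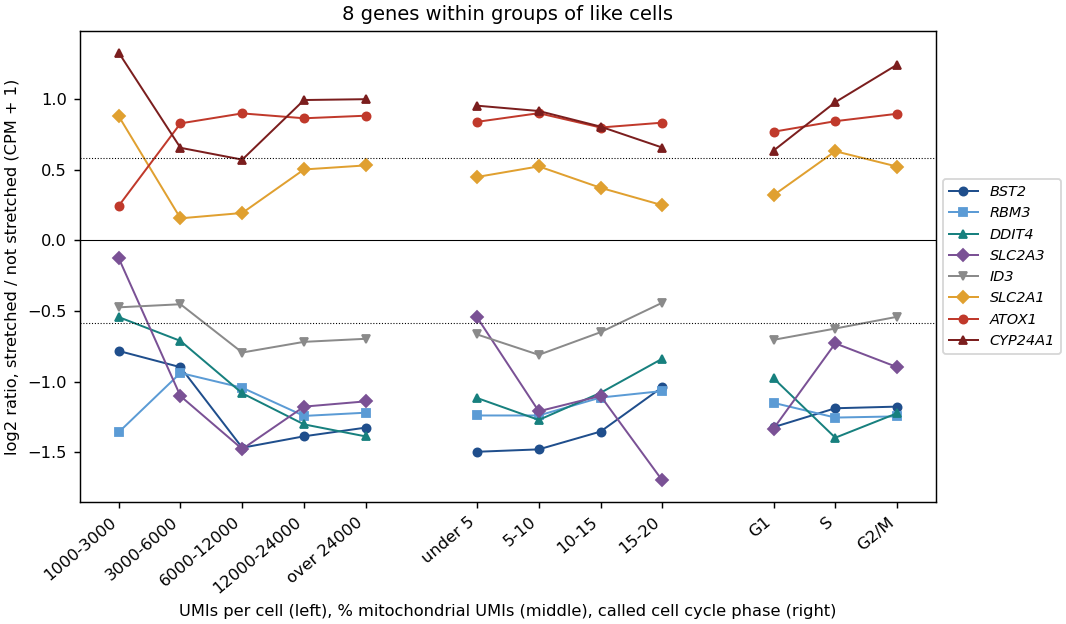
Log2 ratio of stretched to not stretched top cells (CPM with 1 CPM added) of 8 genes within 5 ranges of UMIs per cell, 4 ranges of mitochondrial share and 3 called phases, with dotted lines at 1.5-fold. BST2 and RBM3 stay below the lower dotted line in all 12 groups, SLC2A3 does not, and ATOX1, CYP24A1 and SLC2A1 stay above 0.

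The size of the ratio moved with general gene properties. From the genes of shortest to those of longest genomic span, in 4 equal groups, the median log2 ratio was −0.09, −0.13, −0.17 and −0.21. By transcript length it was −0.11, −0.13, −0.18 and −0.19, and from the lowest to the highest mean level −0.21, −0.18, −0.15 and −0.06. Among genes of 10 to 30 CPM alone the span groups still ran from −0.15 to −0.24, and among genes above 100 CPM from 0.01 to −0.11. The lists with high medians are of abundant and mostly short genes, and the part that level and length have in their medians was not tested.

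**Figure D5:**
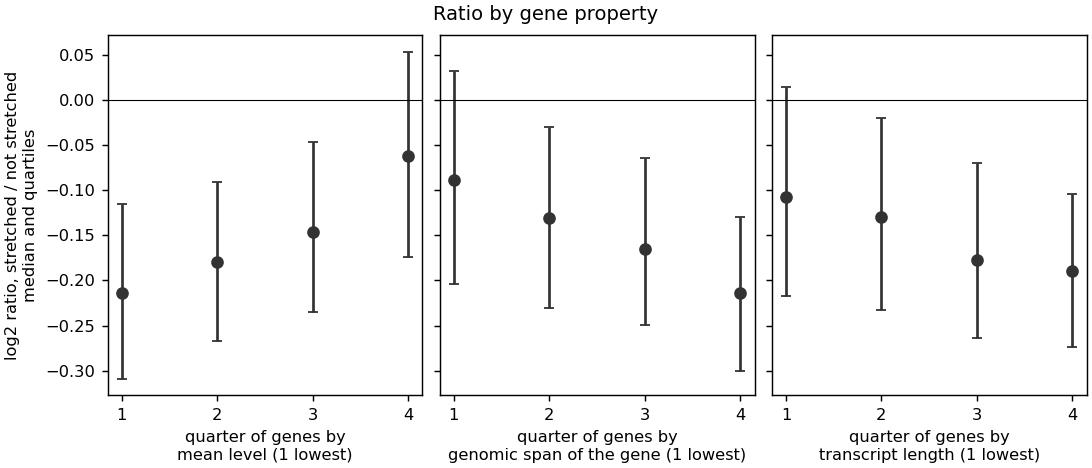
Median log2 ratio of stretched to not stretched top cells (CPM with 1 CPM added), with bars from the lower to the upper quartile, over 4 equal groups of genes ordered by mean level, genomic span and transcript length. The medians rise with level, from −0.21 to −0.06, and fall with span, from −0.09 to −0.21.

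Of the 41 named genes past 1.5-fold, 21 stayed past it under every alternative of cell choice, weighting, scaling and added value that tested them. Among these were BST2, RBM3, DDIT4, SLC2A3, SAMD5, HTR7, SSBP2, ANKRD37, DDIT3 and ADM on the lower side and CYP24A1, ATOX1, RPS27L, RAB27B, CLU and DPM3 on the higher side. The lower calls of IFIT1, ISG20, IFI44, HLA-F, ID2, ID3, SREBF1, SESN2, CYR61, PER1 and ANGPTL4 were lost under TMM scaling.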

How the data were processed

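The gene by barcode matrices of 3 libraries hold UMI counts that the authors deposited without normalization, made with Cell Ranger 7.0.0, per the file headers, on build hg38, per the submitters' processing notes. The annotation version is not given in the sources used here. For each library the counts of its kept cells were added up per gene and divided by their total (CPM), and the log2 ratio was taken after adding 1 CPM, for the 9069 genes reaching 10 CPM in 1 library or both. With 1 library per group the report gives sizes only. Fold intervals are exact conditional binomial intervals (95%) and cover counting error only. A like step was tested on simulated counts that held counting error only. There the ratios were centred on the median gene before calling, while the calls on the CPM scale were not centred, so that test does not cover them. The members and all 41 gene lists were chosen with earlier results of these data known.

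Named genes are the 15 highest and 15 lowest ratios, from each list at most 4 genes of largest absolute ratio, and EPCAM, VIM, RBM3, CIRBP, DDIT4, BST2, CYP24A1 and ATOX1. Further list members are named for their role, and SLC2A1 was added after its value was seen. Some genes that the rule names are not reported here. Phases were called with scanpy 1.11.5 on cells thinned to 3000 UMIs. edgeR 4.0.16 (R 4.3.3) gave the TMM factors and was used for no test. Other steps used Python 3.11.15, numpy 2.4.6, scipy 1.17.1, pandas 2.3.3 and matplotlib 3.10.9. No doublets were removed, and an alternative leaves out the 10% deepest cells. Of 19912 features 19902 matched GENCODE release 29, which gave positions and lengths, and promoters came from RefSeq. In all, 16 alternatives were run. None of the 10 listed nuclear long non-coding RNA genes is among the features used here.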

Additional observations from a re-analysis of the deposited data

How the results depend on the processing

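None of the named genes past 1.5-fold changed direction under the 16 alternatives. Of 41 named genes past 1.5-fold, 21 stayed past it under each alternative that tested them, and 28 of 37 lists stayed on their side of the all-gene median and within 0.1 log2 of their value in all. The number of lower genes (60) became 16 under TMM and 13 under median of ratios scaling, 99 with thinned cells, 21 with 5 CPM added, 134 at a minimum of 1 CPM, 15 at a minimum of 50 CPM and 7 at 2-fold. The number of higher genes (14) became 63 under TMM and 71 under median of ratios scaling, 23 with totals free of mitochondrial and ribosomal protein genes, 24 at a minimum of 1 CPM, 7 at a minimum of 50 CPM and 0 at 2-fold. Of named genes, TMM scaling lost 11 of 40, median of ratios scaling 13 of 40, 5 CPM added 11 of 41, equal weights for depth ranges 7 of 40 and no cell filter 6 of 41, MT-ND3 among the last. The mitochondrially encoded list lay 0.33 above all genes and between −0.01 and 0.34 over the alternatives. The cause of these changes was not tested, apart from the minimum levels and the fold, which change what is counted. No paired analysis was possible because each group has 1 library. Counts below about 40 UMIs, as for SLC2A3 in the shallowest cells, limit the ratios there.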

Other observations

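The 41 named genes past 1.5-fold were also read in barcodes that the cell rule takes out, which the ratios above did not use. In the APOA1-high cells (436 stretched and 410 not stretched), 39 of 41 genes lay on the same side, where 27 of the 41 are lower genes and the median of all genes was itself below 0 (−0.14). RBM3 stood there at 91.6 CPM with stretch against 187 CPM without, DDIT4 at 28.4 against 77.0 CPM and SAMD5 at 40.4 against 86.5 CPM. RPS27L stood at 381 against 182 CPM, with a larger ratio than in the kept cells. BST2 hardly differed there, at 148 against 161 CPM, and SLC2A3 stood at 269.6 against 324 CPM. ID2 (log2 ratio 0.05) and RAB27B (−0.15) lay on the other side. SLC2A1, which was higher with stretch in kept cells, stood at 148 against 179.8 CPM in these.

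In barcodes with over 20% mitochondrial UMIs that met the other cell filters (1813 stretched and 2547 not stretched), 41 of 41 genes lay on the same side, with a median of all genes of −0.10. BST2 stood at 87.9 against 188 CPM, RBM3 at 57.6 against 113 CPM, DDIT4 at 45.3 against 75.03 CPM and ATOX1 at 125 against 73.6 CPM. These barcodes come from the same 2 libraries as the kept cells and are no replicate of them.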
